A study of Mus musculus with 20 samples.

Results

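The 35 genes described here belong to the integrated stress response and to the serine, one-carbon, proline and asparagine synthesis pathways linked to it. They were taken by name from a list of response kinases, transcription factors, effectors and enzymes, chosen with earlier results of these data known. All 35 were found among the 39179 genes of the count tables. Expression was measured by RNA sequencing in immortalised epithelial cells from the kidney of C57BL/6J mice, in 4 groups of 5 libraries. The gene varied, Fh1, codes for fumarate hydratase, which turns fumarate into malate in the TCA cycle. Fh1_fl_fl cells carry the genotype label Fh1 wt, clone1 and clone19 are labelled as Fh1 deletion, and Rec as Fh1 wt re-expressed. All 4 groups shared the strain, the immortalisation and a uridine-supplemented serum medium, so the wild-type cells were also immortalised and also received uridine. The names clone1 and clone19 mark 2 single lines, so a difference between them may belong to the line. The labels do not say which clone Rec was made from, what drives the re-expressed Fh1, which part of the gene was deleted, or whether a group's 5 libraries were separate cultures. The p-values therefore measure only the spread between these libraries, which may be technical.

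The integrated stress response starts at kinases that phosphorylate the translation factor eIF2, each activated by a different stress. General translation then slows while the mRNA of the transcription factor ATF4 is translated more, so much of the control lies at the protein level and is not seen in RNA counts. ATF4, with partners such as C/EBP proteins, switches on genes for amino acid synthesis and transport, and also genes that end the response or lead to cell death. Several of its targets make serine, or make glycine and one-carbon units in mitochondria. Others make proline and asparagine. Growing epithelial cells need these products for protein and nucleotide synthesis.

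ATF4 and its C/EBP partners are known to bind the C/EBP-ATF response element, whose core was searched as TGATGNAA on both strands in the 250 bases upstream of each RefSeq transcript start (GRCm38.p6). A window was held for 31 of the 35 members, and not for Ppp1r15b, Eif4ebp1, Aldh1l2 and Cth. The core was present for 8 of these 31 genes (25.8%), compared with 1056 of all 27025 genes with a window (3.91%). The 8 were Fgf21, Asns, Pycr1, Atf3, Pck2, Chac1, Jdp2 and Nupr1. The core was absent from the 250 searched bases for Ddit3 and Trib3, which had larger fold changes in clone1 (log2 4.64 and 3.56). Bases further upstream or past the start were not searched, so an element there would be missed. Nupr1 holds the core and was lower in clone19 and Rec (log2 -0.42 and -1.49). The 4 genes with the larger fold changes in the clones were picked for printing, so their change follows from that choice. Their stretches are shown because they hold the same core, in either orientation. Each is 30 bases read 5′ to 3′ on the strand of its gene, with the core in capitals.
Fgf21: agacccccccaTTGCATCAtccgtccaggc
Asns: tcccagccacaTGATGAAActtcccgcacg
Pycr1: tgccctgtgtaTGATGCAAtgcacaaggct
Atf3: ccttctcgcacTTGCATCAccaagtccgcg
They lie on the minus strand, at chr7:45615611-45615640 for Fgf21, chr6:7693214-7693243 for Asns, chr11:120643833-120643862 for Pycr1 and chr1:191183425-191183454 for Atf3. The core began 139 bases upstream of the start in Fgf21, 23 in Asns, 103 in Pycr1 and 110 in Atf3. In Fgf21 and Atf3 it was read on the opposite strand. The Asns stretch overlaps an annotated Asns exon. A match describes these letters only and was not tested as a binding site.

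Library totals ran from 5988447 to 18972176 gene counts, and the 3 counts that a count of 0 still allows corresponded to 0.158 to 0.501 CPM (counts scaled to library size) in single libraries. In clone19 replicate 3 the ribosomal RNA-rich locus Gm42418 took 8.202% of counts, against 0.2121 to 0.4631% in the other 19 libraries. Whole-gene Fh1 counts gave 92.4 ± 6.16 (Fh1_fl_fl), 113 ± 5.94 (clone1), 84.8 ± 7.32 (clone19) and 71.3 ± 7.08 (Rec) CPM (mean ± SD, n = 5). Fh1 was called higher in clone1 than in Fh1_fl_fl (log2 0.29, adjusted p = 0.000598, edgeR) and was not called in clone19 (log2 -0.12, adjusted p = 0.124). In Rec it was called lower than in Fh1_fl_fl (log2 -0.37, adjusted p = 4.29e-05), clone1 (log2 -0.66, adjusted p = 3.49e-09) and clone19 (log2 -0.25, adjusted p = 0.0032, all edgeR). With scaling to library totals alone, Fh1 was not called in clone1 (log2 0.15, adjusted p = 0.0656) and was called lower in clone19 (log2 -0.25, adjusted p = 0.00328), while the Rec calls held under all 28 alternatives. The whole-gene Fh1 level in Rec thus did not show the re-expression that its label names, and Rec is named below by that label only. The counts are per gene, not per exon, and the deleted part is not given, so neither the deletion nor the re-expression was checked. All 5 epithelial markers (Cdh1, Epcam, Krt8, Krt18, Krt19) were counted in every group, as were Pax2 and Pax8 of the kidney lineage. The epithelial sum was 2287 to 2671 CPM in Fh1_fl_fl, 1889 to 2415 in clone1, 1501 to 1668 in clone19 and 3414 to 3882 in Rec. Its members did not move together: in clone1 the mean of Epcam was 86.7 CPM against 439 in Fh1_fl_fl and that of Cdh1 168 against 426, while Krt19 had 639 against 348 and Krt18 802 against 684. The 6 fibroblast markers summed to 0.932 to 1.62 CPM in Fh1_fl_fl, 3.82 to 6.93 in clone1, 11.7 to 15.4 in clone19 and 1.27 to 1.87 in Rec, with Pdgfrb and Lum at 0 in every library and Col3a1 at 0 outside clone19. The 4 endothelial markers summed to 0.143 to 0.539, 1.22 to 2.81, 7.14 to 9.8 and 0.637 to 0.982 CPM in the same order, with Tek at 0 in clone19 and Rec. The 4 leukocyte markers summed to 3.73 to 5.19, 8.5 to 10.6, 17.6 to 20.7 and 2.13 to 4.12 CPM, with Cd3e at 0 in Fh1_fl_fl and clone19 and Adgre1 at 0 in Rec. These marker levels moved with the groups, and their part in the results that follow was not tested.

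The comparison of each clone and of Rec with Fh1_fl_fl addressed how the response genes differ between groups with different Fh1 labels. The label and the line cannot be told apart in it. The comparison also addressed whether the response genes are lower in the libraries labelled as Fh1 re-expressed, where the whole-gene Fh1 level was lowest. Most members were higher than in Fh1_fl_fl in all 3 other groups, Rec included. A gene is called changed at a Benjamini-Hochberg adjusted p under 0.05 over the 12671 tested genes in edgeR's quasi-likelihood test, and over 2-fold when it also passed edgeR's test against a 2-fold change. Of the 34 members tested, 28 were higher and 5 lower in clone1, 27 higher and 5 lower in clone19, and 28 higher and 3 lower in Rec. Among all tested genes, 38% were called higher and 40.5% lower in clone1, 36.8% and 36.1% in clone19, and 33.4% and 37.4% in Rec. The members thus leaned to the higher side more than the genes as a whole. They were chosen with earlier results of these data known, so the contrast is a description with no test. Over 2-fold, 17 members were higher in clone1, 14 in clone19 and 15 in Rec, and 0, 0 and 2 were lower. The share of all tested genes over 2-fold was 10.9% higher and 10.9% lower in clone1, 8.2% and 7.28% in clone19, and 3.61% and 7.44% in Rec. The median log2 fold change of the members was 1.14, 1.06 and 1.14, against -0.03, 0.00 and -0.03 over all tested genes. The 3 comparisons share the 5 Fh1_fl_fl libraries. In cultured cells measured in bulk, fewer cells of a type and less RNA per cell cannot be told apart.

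Scaling to library totals alone moved the all-gene median to -0.171 in clone1, -0.12 in clone19 and -0.166 in Rec. In Rec the share of all tested genes called higher then went from 33.4 to 25.9%, and that called lower from 37.4 to 44.9%. Cbs, which makes cystathionine from homocysteine and serine, was not tested. It had 26 counts over the 5 Fh1_fl_fl libraries, 23 in clone1, 7 in clone19 and 5 in Rec, or 0.375 ± 0.217, 0.46 ± 0.327, 0.199 ± 0.148 and 0.0875 ± 0.062 CPM.

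**Figure D1:**
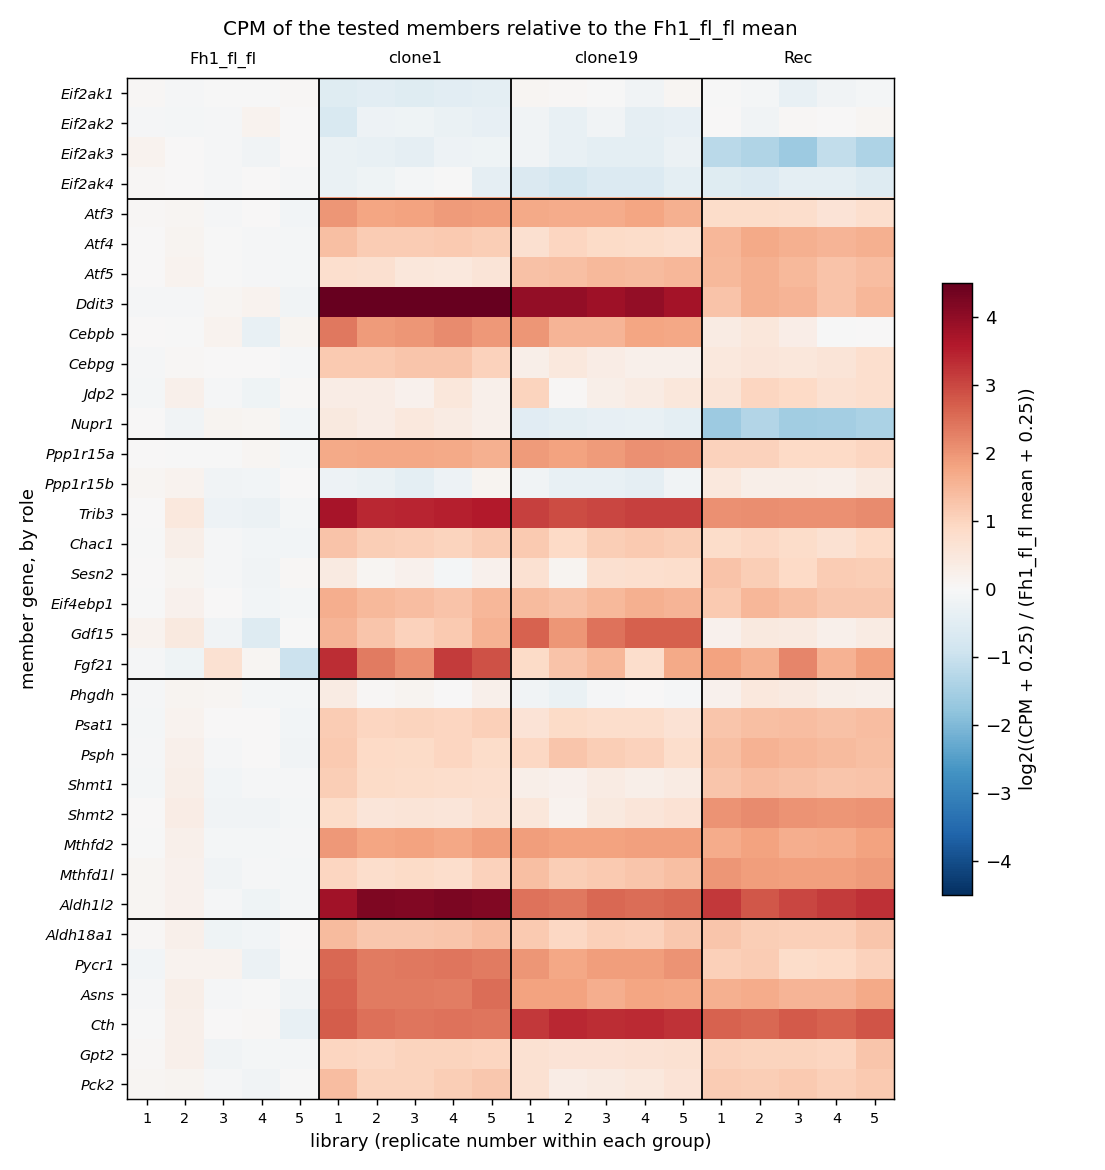
Heatmap of the 34 tested members (rows, grouped by role) in the 20 libraries (columns, grouped by cell group). Colour gives the log2 ratio of CPM to the Fh1_fl_fl mean. The kinase rows are near or below 0, most other rows are above 0 in clone1, clone19 and Rec, and Nupr1 is highest in clone1 and lowest in Rec.

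Levels between genes were compared per kilobase of exon (RPKM). In Fh1_fl_fl the most abundant members were Psat1 at 156 ± 12.8 RPKM, Phgdh at 139 ± 10.4, Gdf15 at 126 ± 31.7 and Atf4 at 121 ± 6.52, while Fgf21 stood at 0.546 ± 0.316. In clone1, Asns reached 354 ± 34.6 RPKM and Ddit3 200 ± 13.5. In clone19, Gdf15 led with 718 ± 135 RPKM. In Rec, Psat1 was highest with 394 ± 13.9 RPKM and Atf4 followed with 364 ± 19.3, while Ddit3 was at 21.9 ± 2.2.

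None of the 4 eIF2 kinases was higher in any group than in Fh1_fl_fl. All 4 were lower in clone1, 3 in clone19 and 2 in Rec, with a median log2 fold change of -0.32, -0.30 and -0.33. Over all tested genes, 40.5%, 36.1% and 37.4% were called lower in these groups, and 38%, 36.8% and 33.4% higher. The counts of each role, here and below, are small and are to be read against these shares. Eif2ak3 (PERK, which senses unfolded protein in the endoplasmic reticulum; GRCm38 chromosome 6, 70844515 to 70905245, plus strand) had 56.5 ± 4.33 (Fh1_fl_fl), 46.1 ± 2.77 (clone1), 45.4 ± 4.01 (clone19) and 22.3 ± 3.15 (Rec) CPM. Its log2 fold change in Rec was -1.35 (SE 0.08, adjusted p = 1.01e-13, edgeR), with every Rec library below every other library. Eif2ak4 (GCN2, which senses uncharged tRNA) had 57.3 ± 2.1 (Fh1_fl_fl), 50 ± 5.4 (clone1), 37.3 ± 3.44 (clone19) and 39.9 ± 2.46 (Rec) CPM. Its clone1 ranges overlapped those of the control, and the call there (adjusted p = 0.0121, edgeR) was lost without Fh1_fl_fl replicate 1, clone1 replicate 1 or 5, or clone19 replicate 1, with adjusted p from 0.0509 to 0.136.

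Eif2ak1 (HRI, which responds to heme shortage and to mitochondrial stress) was called lower than the control in clone1 and not in clone19 or Rec. It had 99.5 ± 2.89 (Fh1_fl_fl), 70 ± 2.32 (clone1), 100 ± 6.57 (clone19) and 91.2 ± 7.25 (Rec) CPM. The clone19 level exceeded that of clone1 by 0.52 on the log2 scale (SE 0.06, adjusted p = 3.34e-08, edgeR). In Rec the difference from Fh1_fl_fl was -0.13 (adjusted p = 0.0581, edgeR) and became a call without Rec replicate 1 (adjusted p = 0.0322) and with scaling to library totals (log2 -0.26, adjusted p = 0.000773). Eif2ak2 (PKR, which senses double-stranded RNA) was lower in both clones and not in Rec, at 50.9 ± 3.4, 40.1 ± 5.02, 41.9 ± 3.07 and 51.1 ± 3.23 CPM in Fh1_fl_fl, clone1, clone19 and Rec. The Rec ranges lay above both clones' ranges for Eif2ak2. The exons of Eif2ak1 overlap those of Aimp2 on the other strand, and the counting strand was not given. Reads listed as ambiguous, 0.4624 to 0.6528% per library, entered no gene, so reads from the overlap may be missing from the counts.

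All 8 transcription factors were higher in clone1, and 7 in clone19 and 6 in Rec, with 1 lower in each of the latter. Ddit3, Cebpb and Atf3 were highest in the clones, whereas Atf4, Atf5 and Jdp2 had their highest means in Rec, though Rec and clone19 libraries overlapped for Atf5 and Jdp2. Atf4 (chromosome 15, 80255184 to 80257541, plus strand), the central factor of the response, had 287, 311, 285, 279 and 269 CPM in Fh1_fl_fl replicates 1 to 5. It had 740, 625, 628, 641 and 616 CPM in clone1 and 474, 553, 520, 512 and 489 in clone19, and 807, 925, 870, 827 and 862 in Rec. The 4 groups did not overlap, with Rec above clone1, clone1 above clone19 and clone19 above the control. The log2 fold change was 1.18 in clone1, 0.83 in clone19 and 1.59 in Rec (SE 0.06 each, adjusted p = 4.2e-18 in Rec, edgeR). Atf4 and Cebpb were given per library after their values were seen.

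Ddit3 (CHOP, a factor that promotes cell death when stress lasts; ENSMUSG00000025408, chromosome 10, 127290774 to 127296288, plus strand) showed the largest fold change of the members in both clones. Fh1_fl_fl replicates 1 to 5 had 13.3, 13.2, 14.5, 15.1 and 12.2 CPM and the Rec libraries 33.8, 41.8, 39.9, 33.4 and 38.9. The clone1 libraries had 382, 333, 326, 339 and 328 CPM and the clone19 libraries 216, 216, 194, 216 and 186. The clones stood apart from both other groups, and Rec stood between them and the control without overlap. Against the control, Ddit3 rose by 4.64 on the log2 scale in clone1 (SE 0.08, adjusted p = 1.21e-25, edgeR), 3.91 in clone19 (SE 0.08) and 1.46 in Rec (SE 0.08, adjusted p = 6.9e-15, edgeR). Ddit3 shares 68 exon bases with Mars on the opposite strand, so part of its reads may have been left out as ambiguous.

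Cebpb (C/EBP beta, a partner of ATF4; chromosome 2, 167688915 to 167690418, plus strand) was high in both clones, and Rec libraries overlapped those of Fh1_fl_fl. It had 10.9, 10.5, 11.8, 8.46 and 11.5 CPM in Fh1_fl_fl and 13.8, 15.1, 13.2, 10.6 and 10.7 in Rec. In clone1 the libraries had 55.9, 40.8, 42.5, 47.5 and 42.3 CPM, and in clone19 43.3, 30.9, 31.2, 37.2 and 35.9. Cebpb rose by 2.10 on the log2 scale in clone1 (SE 0.11) and 1.74 in clone19 (SE 0.12), and Rec differed from the control by 0.25 (SE 0.12, adjusted p = 0.0757, edgeR). Cebpb was the single member higher in both clones and not called in Rec, but it was called in Rec without Fh1_fl_fl replicate 3, Rec replicate 4 or 5, or clone1 replicate 1 (adjusted p from 0.0264 to 0.0482) and in a fit of those 2 groups alone (adjusted p = 0.0431). Cebpb shares 312 exon bases with Tmem189 on the opposite strand. Its adjusted p in Rec lay between 0.0264 and 0.426 across the alternatives.

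Nupr1, a small stress-induced chromatin protein (chromosome 7, 126623249 to 126630861, minus strand), was the one member that the clones changed in opposite directions. It had 106, 94.8, 116, 112 and 97.8 CPM in Fh1_fl_fl and 143, 133, 146, 136 and 122 in clone1. It had 73.5, 77.6, 81.9, 83.8 and 76.9 CPM in clone19 and 33.8, 42.3, 35.7, 36 and 39.4 in Rec. The 4 groups were fully separate, with clone1 above and clone19 and Rec below the control. On the log2 scale Nupr1 differed from the control by 0.37 in clone1 (SE 0.07, adjusted p = 2.03e-05, edgeR), -0.42 in clone19 (SE 0.07, adjusted p = 5.88e-06, edgeR) and -1.49 in Rec (SE 0.07, adjusted p = 4.24e-16, edgeR).

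Atf3, a stress-induced repressor, had 18.5 ± 0.976 (Fh1_fl_fl), 68.6 ± 3.63 (clone1), 60.1 ± 2.39 (clone19) and 31.6 ± 2.03 (Rec) CPM. Atf5, which regulates the mitochondrial stress response, had 30.5 ± 2.1, 46.7 ± 4.24, 81.7 ± 4.5 and 83.6 ± 7.03 CPM in that order. Cebpg, a C/EBP protein that pairs with ATF4, had 82.3 ± 2.73, 188 ± 11.6, 102 ± 7.51 and 122 ± 9.44 CPM, so clone1 stood above clone19 and Rec. Jdp2, a Jun dimerization protein, had 9.93 ± 1.13, 12.5 ± 1.15, 13.9 ± 3.65 and 17.2 ± 1.88 CPM, and its clone1 call (adjusted p = 0.0192, edgeR) was lost without Fh1_fl_fl replicate 4 or clone1 replicate 4 (adjusted p = 0.0513 and 0.0509) and with scaling to library totals (adjusted p = 0.181).

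The 8 feedback and effector genes comprise the phosphatase subunits that reverse eIF2 phosphorylation, brakes on the response and secreted hormones. In clone1, 6 were higher and 1 lower, in clone19, 7 and 1, and in Rec all 8 were higher, with medians of 1.40, 1.55 and 1.05. Trib3, a pseudokinase that restrains ATF4 and CHOP (chromosome 2, 152337422 to 152344032, minus strand), had 17.3, 24, 14.6, 14.2 and 16 CPM in Fh1_fl_fl and 73.1, 73.7, 73, 71.9 and 76.7 in Rec. It had 231, 182, 188, 198 and 206 CPM in clone1 and 146, 134, 140, 146 and 148 in clone19. The 4 groups did not overlap, and every Rec library was between the control and the clones. The log2 fold change was 3.56 in clone1, 3.07 in clone19 and 2.11 in Rec (SE 0.10 each, adjusted p = 1.28e-16 in Rec, edgeR).

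Fgf21, a secreted metabolic hormone (chromosome 7, 45613886 to 45615490, minus strand), had the fewest counts of the tested members. It had 36 counts over the Fh1_fl_fl libraries, 244 in clone1, 65 in clone19 and 147 in Rec. In CPM these were 0.49, 0.415, 0.973, 0.573 and 0.144 in Fh1_fl_fl and 7.47, 3.68, 2.97, 6.57 and 5.29 in clone1. They were 1.16, 1.61, 1.93, 1.08 and 2.25 CPM in clone19 and 2.43, 2.06, 3.27, 2 and 2.49 in Rec. No library of the other groups overlapped the control. Fgf21 rose by 3.30 on the log2 scale in clone1 (SE 0.31), 1.63 in clone19 (SE 0.39) and 2.25 in Rec (SE 0.34, adjusted p = 1.36e-06, edgeR).

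Gdf15, a stress-induced circulating cytokine, ranged from 922 to 1493 CPM between the clone19 libraries. It had 233 ± 58.7 (Fh1_fl_fl), 587 ± 92.9 (clone1), 1329 ± 250 (clone19) and 292 ± 20.7 (Rec) CPM. The Rec libraries, from 266 to 314 CPM, overlapped the control libraries, from 156 to 314 CPM. The log2 difference of 0.33 in Rec (SE 0.14, adjusted p = 0.0364, edgeR) did not hold without Fh1_fl_fl replicate 3, 4 or 5 or Rec replicate 2, 3 or 5 (adjusted p from 0.0509 to 0.137). DESeq2 gave an adjusted p of 0.0598 for it, and scaling to library totals gave 0.206.

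Among the phosphatase subunits, Ppp1r15a (GADD34, the stress-induced subunit) had 26 ± 1.22 (Fh1_fl_fl), 85.3 ± 3.28 (clone1), 102 ± 7.17 (clone19) and 51.2 ± 2.31 (Rec) CPM. The constitutive subunit Ppp1r15b had 119 ± 10.7, 103 ± 15.7, 98.8 ± 7.68 and 149 ± 10.2 CPM, and was lower in clone19 (log2 -0.27, adjusted p = 0.00519, edgeR) and higher in Rec (log2 0.33, adjusted p = 0.001, edgeR). In clone1 the Ppp1r15b difference of -0.21 (adjusted p = 0.0251, edgeR) was lost without Fh1_fl_fl replicate 1, 2 or 5, Rec replicate 2, 4 or 5, clone1 replicate 1, 2 or 3, or clone19 replicate 1 or 3, with adjusted p from 0.0637 to 0.144. It was also lost under 5 other alternatives, among them DESeq2 (adjusted p = 0.0629).

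Chac1, which degrades glutathione, had 56.2 ± 6.57 (Fh1_fl_fl), 123 ± 8.88 (clone1), 120 ± 8.99 (clone19) and 101 ± 6.27 (Rec) CPM. Eif4ebp1, a repressor of cap-dependent translation, had 116 ± 10.4, 320 ± 29.9, 323 ± 25 and 286 ± 28.8 CPM, so the 3 groups stood over 2-fold above the control. Sesn2, a leucine-binding inhibitor of mTORC1 signalling, had 15.1 ± 1.04, 16.9 ± 2.1, 23.7 ± 4.15 and 33.1 ± 3.05 CPM. It was the one tested member not called in clone1 (log2 0.17, SE 0.11, adjusted p = 0.155, edgeR), and it was highest in Rec.

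**Figure D2:**
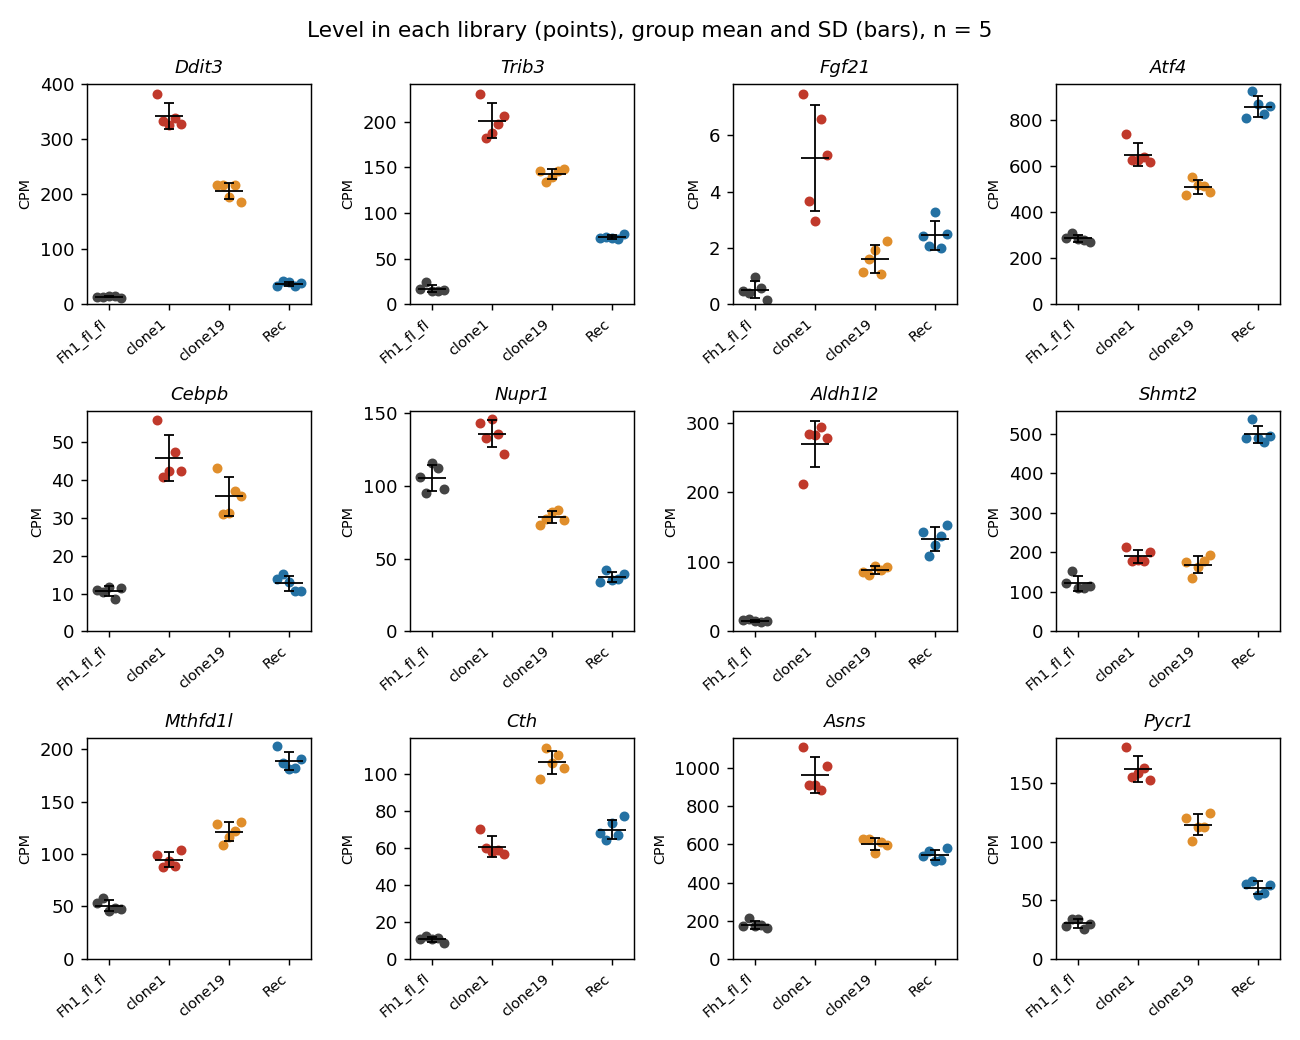
CPM of 12 members in each library of the 4 groups (points), with the mean and SD of each group (bars) and a separate vertical axis per gene. In Ddit3, Trib3 and Pycr1 the Rec points lie between the control and the clones, in Cebpb they overlap the control, and in Atf4, Shmt2 and Mthfd1l they lie above both clones.

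The 8 serine and one-carbon genes were all higher in clone1 and Rec, and 7 of them in clone19, with none lower. Their median log2 fold change was 0.93 in clone1, 0.89 in clone19 and 1.59 in Rec. Over 2-fold, 7 of 8 were higher in Rec, 2 in clone1 and 3 in clone19. The shares of all tested genes over 2-fold higher were 3.61% in Rec, 10.9% in clone1 and 8.2% in clone19. The steps of serine synthesis are carried out by Phgdh, Psat1 and Psph in turn. Phgdh had 346 ± 25.7 (Fh1_fl_fl), 388 ± 37.8 (clone1), 321 ± 27.1 (clone19) and 431 ± 37 (Rec) CPM. Psat1 had 665 ± 54.5, 1349 ± 72.6, 1113 ± 72.1 and 1675 ± 59 CPM, and Psph had 68.7 ± 7.2, 133 ± 13.3, 140 ± 16 and 188 ± 11.2 CPM. Psat1 and Psph stood above the control without overlap in each group, and the Phgdh differences were smaller.

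The Phgdh difference in clone1 (log2 0.16, adjusted p = 0.0426, edgeR) was lost without Fh1_fl_fl replicate 4 (adjusted p = 0.105) or clone1 replicate 1 (adjusted p = 0.0664), and with scaling to library totals (log2 0.02, adjusted p = 0.804). In clone19 it was -0.11 (adjusted p = 0.188, edgeR), and with scaling to library totals -0.23 (adjusted p = 0.00624, a call in the lower direction). The Phgdh call in Rec (log2 0.32, adjusted p = 0.000383, edgeR) held under every alternative run, with adjusted p up to 0.0281. Exons of Psph overlap those of Cct6a on the other strand, by 452 bases.

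Shmt2, the mitochondrial enzyme that splits serine into glycine and a one-carbon unit (chromosome 10, 127517123 to 127522444, minus strand), was far higher in Rec than in any other group. It had 123, 153, 109, 109 and 114 CPM in Fh1_fl_fl and 214, 177, 181, 177 and 201 in clone1. It had 175, 135, 163, 177 and 193 CPM in clone19 and 489, 536, 490, 480 and 494 in Rec. The Rec libraries did not overlap the others, while 1 clone19 library lay within the control range. Relative to Fh1_fl_fl, Shmt2 rose by 0.65 on the log2 scale in clone1, 0.47 in clone19 and 2.04 in Rec (SE 0.09 each, adjusted p = 7.26e-17 in Rec, edgeR).

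Mthfd1l, the mitochondrial enzyme that releases formate from one-carbon folate (chromosome 10, 3973118 to 4167081, plus strand), rose from the control through clone1 and clone19 to Rec. It had 53.6, 58, 45.5, 48.4 and 47.7 CPM in Fh1_fl_fl and 99.4, 88, 93.2, 88.1 and 104 in clone1. It had 129, 109, 116, 122 and 131 CPM in clone19 and 203, 187, 181, 182 and 191 in Rec. The 4 groups were fully separate. The log2 fold change was 0.90 in clone1, 1.26 in clone19 and 1.90 in Rec (SE 0.07 each, adjusted p = 2.25e-18 in Rec, edgeR).

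Aldh1l2, the mitochondrial folate enzyme that oxidises formyl groups to carbon dioxide (ENSMUSG00000020256, chromosome 10, 83487450 to 83534140, minus strand), had the largest fold change of the members in Rec. It had 16.5, 17.8, 14.9, 13.3 and 14.4 CPM in Fh1_fl_fl and 212, 284, 282, 294 and 278 in clone1. It had 84.9, 81.1, 94.2, 88.8 and 92.5 CPM in clone19 and 143, 108, 124, 138 and 153 in Rec. All 4 groups were separate, with Rec between clone19 and clone1. Log2 fold changes were 4.14 in clone1, 2.52 in clone19 and 3.12 in Rec (SE 0.10 each, adjusted p = 1.77e-19 in Rec, edgeR). Aldh1l2 exons share 1056 bases with D10Wsu102e on the opposite strand.

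Mthfd2, the mitochondrial methylenetetrahydrofolate dehydrogenase, reached nearly the same level in the 3 groups, with 113 ± 11.2 (Fh1_fl_fl), 403 ± 21.6 (clone1), 407 ± 8.87 (clone19) and 373 ± 20.4 (Rec) CPM. Shmt1, the cytosolic counterpart of Shmt2, had 39.4 ± 4.67, 72.5 ± 7.69, 48.3 ± 2.62 and 97.2 ± 4.16 CPM. Its clone19 difference (log2 0.30, adjusted p = 0.00131, edgeR) was not called with scaling to library totals (adjusted p = 0.0527). Shmt1 shares 184 exon bases with Smcr8 on the opposite strand.

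All 6 tested enzymes of proline, asparagine and related amino acid metabolism were higher in clone1, clone19 and Rec, with median log2 fold changes of 1.86, 1.42 and 1.15. Cth, which makes cysteine from cystathionine (chromosome 3, 157894248 to 157925077, minus strand), had 10.4, 12.3, 10.6, 10.9 and 8.29 CPM in Fh1_fl_fl and 70.2, 59.6, 57.4, 58.6 and 56.8 in clone1. It had 97.2, 114, 106, 110 and 103 CPM in clone19 and 67.7, 64.3, 73.2, 66.7 and 77.1 in Rec. Clone19 was highest and the control stood apart from all others, while clone1 and Rec overlapped. The log2 fold change was 2.54 in clone1, 3.35 in clone19 and 2.74 in Rec (SE 0.09 each, adjusted p = 8.71e-20 in Rec, edgeR).

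Proline is made through Aldh18a1 and Pycr1. Aldh18a1, which starts the path from glutamate, had 175 ± 19.7 (Fh1_fl_fl), 429 ± 30.7 (clone1), 372 ± 31.2 (clone19) and 389 ± 25.8 (Rec) CPM. Pycr1, which completes proline in mitochondria, had 30.3 ± 3.77, 162 ± 11.4, 114 ± 8.93 and 60.7 ± 5.33 CPM, so Rec stood at a level between the control and the clones. Both genes were called in every group, with log2 fold changes in Rec of 1.15 (SE 0.07) and 1.01 (SE 0.08).

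Asns, which makes asparagine, had 178 ± 20.1 (Fh1_fl_fl), 967 ± 94.6 (clone1), 604 ± 30.3 (clone19) and 544 ± 27.9 (Rec) CPM. Gpt2, the mitochondrial alanine aminotransferase, had 128 ± 13.1, 254 ± 4.42, 202 ± 6.62 and 268 ± 21.5 CPM. Pck2, the mitochondrial phosphoenolpyruvate carboxykinase, had 59.8 ± 4.19, 134 ± 15.2, 85 ± 8.5 and 132 ± 4.67 CPM. The ranges of all 3 lay above those of the control in each of the other groups.

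**Figure D3:**
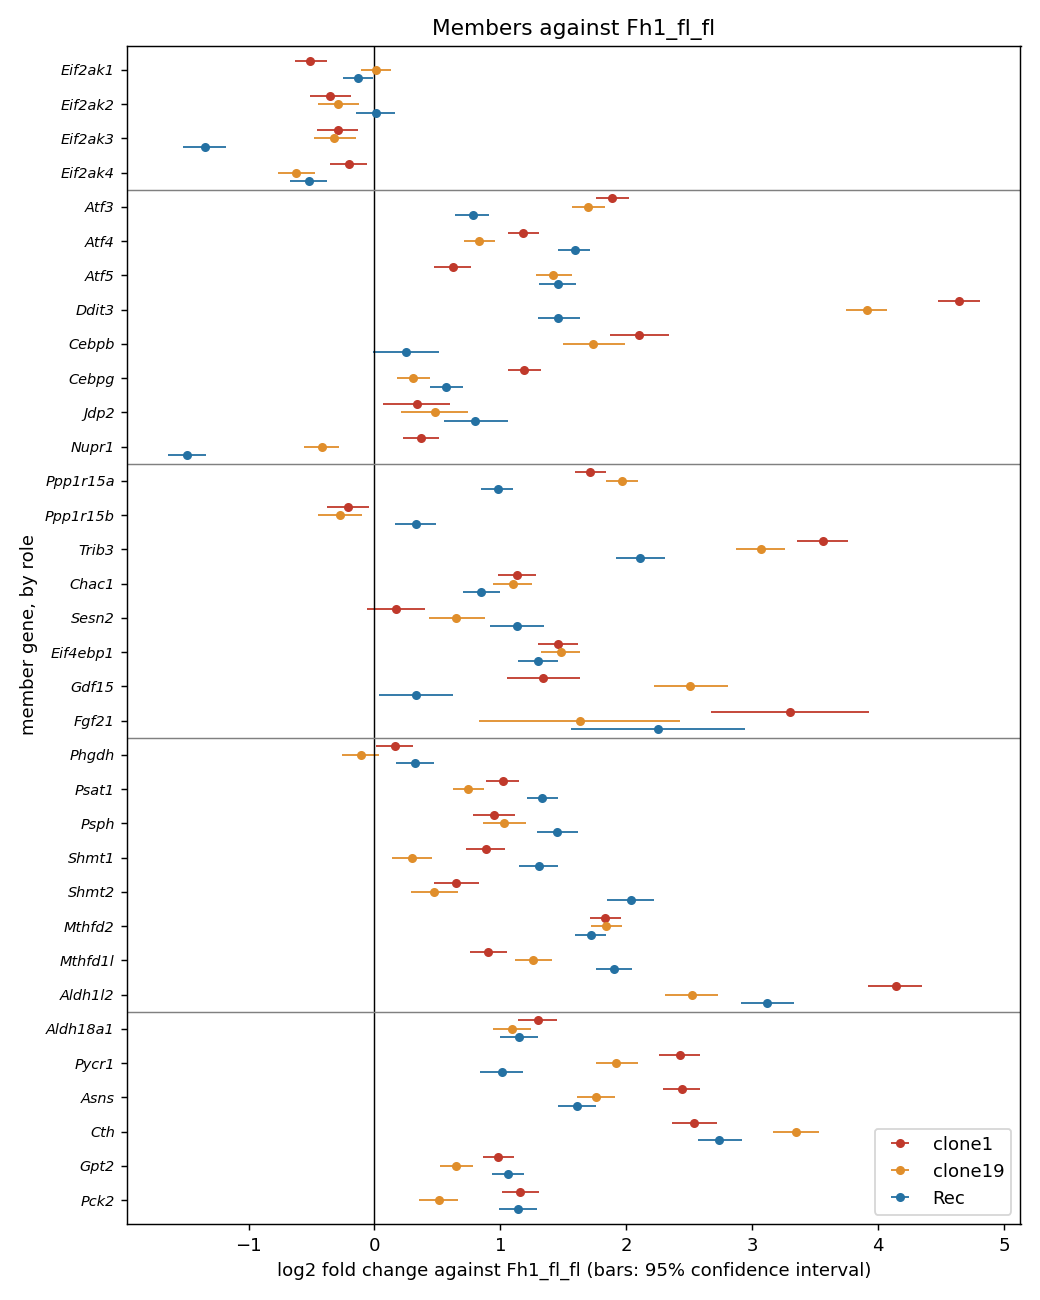
Log2 fold change against Fh1_fl_fl for the 34 tested members in clone1, clone19 and Rec (points), with 95% confidence intervals from the edgeR fit (bars). The serine and one-carbon genes lie furthest right in Rec except Aldh1l2 and Mthfd2, whose clone1 values of 4.14 and 1.83 exceed the Rec values of 3.12 and 1.72, and no kinase lies above 0.01.

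Rec, labelled as Fh1 re-expressed, was next compared with each clone. Its whole-gene Fh1 level was lower than in both (log2 -0.66 and -0.25). Of the 26 members higher in both clones than in Fh1_fl_fl, 25 were also higher in Rec, and 8 were lower in Rec than in both clones. Among all 3331 tested genes higher in both clones, 52.1% were also higher in Rec and 61.1% were lower in Rec than in both clones, against 96.2% and 30.8% of the 26 members. The comparisons share libraries and the members were chosen with earlier results of these data known, so these shares are a description with no test. The 8 members were Atf3, Ddit3, Cebpb, Ppp1r15a, Trib3, Chac1, Gdf15 and Pycr1, of which 7 were still above the control and Cebpb was not called. The other 18 of the 25 were not below both clones: Atf4, Atf5, Cebpg, Jdp2, Eif4ebp1, Fgf21, Psat1, Psph, Shmt1, Shmt2, Mthfd2, Mthfd1l, Aldh1l2, Aldh18a1, Asns, Cth, Gpt2 and Pck2. The count of 25 was 22 with scaling to library totals, 24 with DESeq2 and between 23 and 26 when 1 library was left out. The count of 8 ran from 8 to 11. It was 11 with DESeq2, where Eif4ebp1, Mthfd2 and Asns were also called lower in Rec than in both clones.

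Against clone1, 13 of 34 members were higher in Rec and 15 lower, with 1 higher and 6 lower over 2-fold and a median log2 difference of -0.13. Against clone19, 15 were higher and 13 lower, with 1 and 3 over 2-fold and a median of 0.08. Among all tested genes, 39.7% were higher and 38.1% lower in Rec than in clone1, with 9.12% and 12.9% over 2-fold. Against clone19 these shares were 35.8% and 38%, with 5.11% and 10.4% over 2-fold. The member counts therefore lay near the background in both comparisons. The counts by role that follow are small, and differences between roles were not tested. These 2 comparisons share the 5 Rec libraries.

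Of the 8 factors, 5 were lower and 3 higher in Rec than in clone1, and 4 lower and 3 higher than in clone19. Of the 8 feedback and effector genes, 5 were lower and 2 higher in each comparison. Ddit3 differed most, by -3.18 against clone1 and -2.45 against clone19 (SE 0.07 each, adjusted p = 4.47e-23 and 1.98e-20, edgeR). Gdf15 differed by -1.01 against clone1 and -2.18 against clone19 (SE 0.14 each), and Cebpb by -1.85 (SE 0.11) and -1.49 (SE 0.12). Atf4 ran the other way, at 0.40 and 0.75 (SE 0.06 each, adjusted p = 8.15e-07 and 1.11e-11, edgeR).

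Of the 8 serine and one-carbon genes, 5 were higher and 1 lower in Rec than in clone1, and 7 were higher and 0 lower than in clone19. Shmt2 was higher by 1.39 against clone1 and 1.56 against clone19 (SE 0.09 each, adjusted p = 7.09e-14 and 1.34e-14, edgeR), the one member over 2-fold in this direction. Aldh1l2 was lower than in clone1 by -1.02 and higher than in clone19 by 0.59 (SE 0.09 each). Mthfd2 differed by -0.11 against clone1 and -0.13 against clone19 (SE 0.06 each, adjusted p = 0.0812 and 0.0574, edgeR), and across alternatives its adjusted p ran from 0.0184 to 0.219 and from 0.0321 to 0.269. The first became a call without Fh1_fl_fl replicate 1, 2, 3 or 5, Rec replicate 2 or 5, or clone19 replicate 1, and the second without Fh1_fl_fl replicate 2 (adjusted p from 0.0252 to 0.0494 and 0.0327). Among the 6 tested enzymes of proline, asparagine and related amino acid metabolism, 1 (Cth) was higher and 2 (Pycr1 and Asns) lower against clone1. Against clone19, 2 (Gpt2 and Pck2) were higher and 2 (Pycr1 and Cth) lower.

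**Figure D4:**
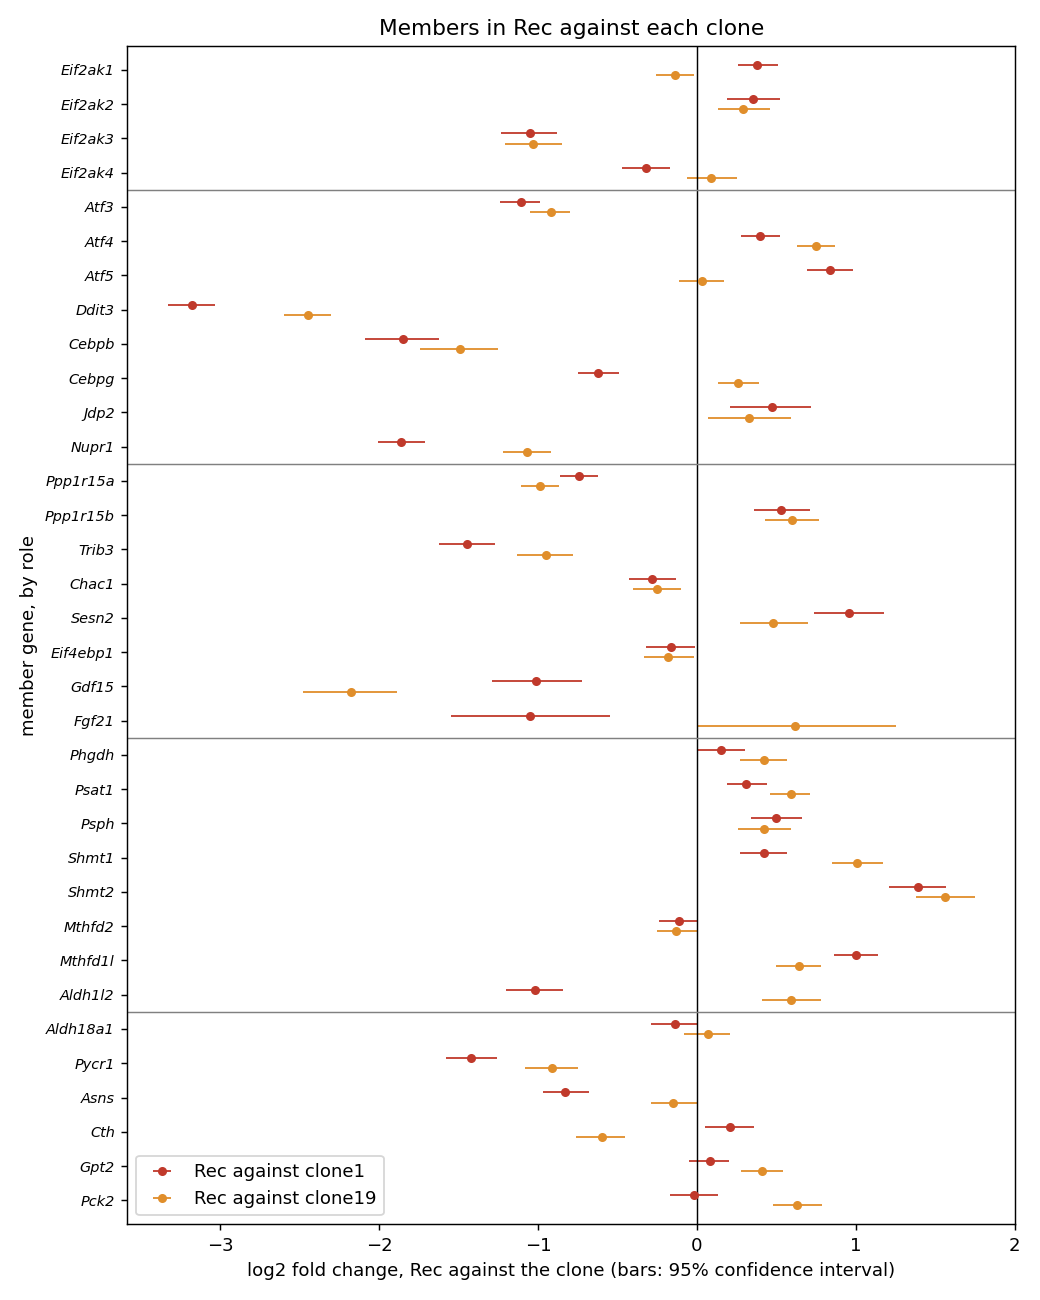
Log2 difference of Rec from clone1 and from clone19 for the 34 tested members (points), with 95% confidence intervals from the edgeR fit (bars). Ddit3 lies furthest left at -3.18 and -2.45, and Shmt2 furthest right at 1.39 and 1.56.

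Between the clones, 7 members were higher and 18 lower in clone19 than in clone1, with 0 and 2 over 2-fold. Among all tested genes 33.5% were higher and 31.6% lower, with 4.79% and 4.79% over 2-fold. The members over 2-fold were Fgf21, at -1.67 (SE 0.28), and Aldh1l2, at -1.61 (SE 0.09, adjusted p = 1.89e-14 against no difference, edgeR). The largest difference in the other direction was that of Gdf15, at 1.18 (SE 0.14, adjusted p = 3.58e-08, edgeR), with Cth at 0.81 (SE 0.08), Atf5 at 0.80 (SE 0.07), Eif2ak1 at 0.52, Sesn2 at 0.48 (SE 0.11), Mthfd1l at 0.36 and Ppp1r15a at 0.25. Ddit3 was lower in clone19 by -0.73 and Atf4 by -0.35.

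Neighbouring pathways were described from lists of genes that are not members, also chosen with earlier results of these data known. Their counts are to be read against the all-gene shares. These were 38% higher and 40.5% lower in clone1, 36.8% and 36.1% in clone19, and 33.4% and 37.4% in Rec. Of 14 endoplasmic reticulum chaperones and unfolded protein response genes, 11 were higher and 2 lower in clone1, 12 and 0 in clone19, and 8 and 3 in Rec, with medians of 0.93, 0.90 and 0.31. Against the clones, 9 of 14 were lower in Rec than in clone1 and 10 of 14 lower than in clone19, where 38.1% and 38% of all tested genes were lower. The chaperone gene Hspa5 had means of 780, 2339, 2256 and 1165 CPM in Fh1_fl_fl, clone1, clone19 and Rec. Atf6, a sensor of unfolded protein, had 94.5, 261, 203 and 93.3 CPM. Ern1 (IRE1) had 16.5, 42.5, 46.7 and 22.3 CPM and Hyou1 149, 292, 423 and 189.

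Of 8 mitochondrial stress genes, 6 were higher in each clone and 5 in Rec, with 1 lower in clone1 and 2 in clone19. The protease gene Lonp1 had 136, 489, 499 and 217 CPM in the same order and Hspa9, a mitochondrial chaperone, 755, 2708, 2383 and 1628. Hspd1 had 364, 815, 955 and 1017 CPM, and was not called lower in Rec than in either clone. Dele1, which relays mitochondrial stress to HRI, had 36.1, 77.9, 51.5 and 36.7 CPM.

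Of 15 genes of the eIF2 and eIF2B machinery, 5 were higher and 7 lower in clone1, 6 and 6 in clone19, and 8 and 0 in Rec. The clone shares, 33.3% and 46.7% in clone1 and 40% and 40% in clone19, lay near those of all tested genes. Impact, an inhibitor of GCN2, had 24.7, 103, 22 and 22.4 CPM, so clone1 stood above the other 3 groups. Eif2b3 had 16.6, 30.4, 46.4 and 44.3 CPM, Eif2s2 275, 378, 480 and 474, and Eif4ebp2 55.2, 31.9, 30.3 and 67.3.

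Of 24 other amino acid response targets, 19 were higher and 4 lower in each clone, and 16 higher and 6 lower in Rec, with medians of 0.77, 0.78 and 0.82. The cystine transporter gene Slc7a11 had 9.38, 657, 160 and 117 CPM, and the neutral amino acid transporter gene Slc1a4 had 22.8, 209, 64.9 and 82.1 CPM. Slc7a3 had 1.99, 0.229, 0.31 and 0.852 CPM. Stc2, a secreted glycoprotein gene, had 0.545, 1.5, 27.2 and 0 CPM, with 0 counts in Rec, so it was at least 10.9-fold lower in Rec than in Fh1_fl_fl against a floor of 3 counts over the group. The clone19 level was at least 534-fold above Rec on that floor.

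Of 19 tested genes of the folate and methionine cycles, 10 were higher and 6 lower in clone1, 8 and 4 in clone19, and 12 and 3 in Rec. The higher share in clone19, 42.1%, lay near the 36.8% of all tested genes. Mat2a, which makes S-adenosylmethionine, had 262, 49.8, 85 and 373 CPM, and Tyms, thymidylate synthase, had 82.4, 28.4, 32.7 and 119, so both were low in the clones and not in Rec. The folate carrier gene Slc19a1 had 9.04, 18.3, 12 and 42.1 CPM and was highest in Rec, as Shmt2 and Mthfd1l were. Gldc, the glycine cleavage decarboxylase gene, had 121 counts in clone1, 14 in clone19, 2 in Fh1_fl_fl and 0 in Rec. From these pooled counts, scaled to the summed library sizes, its ratio of clone1 to Fh1_fl_fl was 89.4, with an exact 95% counting interval of 24.2 to 746.

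Of 11 other proline and glutamate genes, 7 were higher and 4 lower in clone1, 6 and 3 in clone19, and 7 and 0 in Rec. Prodh, which degrades proline, had 3.12, 0.144, 0.0332 and 4.77 CPM. The clone19 level rested on 1 count. From counts pooled over each group and scaled to its summed library sizes, not from the mean CPM, the ratio of Fh1_fl_fl to clone19 was 125. Its exact 95% counting interval was 22.3 to 4.97e+03. Got1 had 160, 428, 294 and 272 CPM, Oat, which links ornithine to proline, 56.8, 140, 89.6 and 109, and Glud1 192, 421, 213 and 245.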

How the data were processed

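RNA sequencing counts of 20 libraries were used, 5 in each of 4 groups, with group and replicate number taken from the titles and genotype labels. The authors deposited raw counts, 1 whole number per Ensembl gene and library, followed by 5 summary lines that were left out. The submitters' processing notes name the build GRCm38 and, as tools, DESeq 1.10.1, HTSeq 0.5.3p9 and TopHat2 2.0.4, with roles, annotation and strand setting not given in the sources used here. Reads aligned to more than 1 place were 28.83 to 40.29% of those listed and entered no gene. Symbols, coordinates and exon lengths came from GENCODE M21 (GRCm38), matched on identifiers. With edgeR 4.0.16 in R 4.3.3, filterByExpr kept 12671 genes for testing and dropped 26508. All 20 libraries were scaled by TMM and entered 1 quasi-likelihood fit that gave each group its own mean, with glmTreat at a log2 bound of 1 for changes over 2-fold. The script was tested on simulated data. CPM values use TMM-scaled library sizes and are mean ± SD over 5 libraries. Intervals and floors cover counting error only. There were 28 alternatives, among them DESeq2 1.42.0, other scaling and filters, a replicate block and leaving out each library.

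The members and the gene lists were chosen with earlier results of these data known. Per-library values are given for the 6 members higher in all 3 groups with the largest log2 fold change in Rec, the 4 with the largest in each clone, those called in opposite directions in the clones, and the 2 that differed most between the clones. Up to 4 genes are named in each other list, those with the largest mean change over the clones. Sequences came from RefSeq (GRCm38.p6).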

Additional observations from a re-analysis of the deposited data

Results flagged for a closer look

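In 13 of 140 pairs of a member and a group, 1 library stood apart from the other 4 by more than Dixon's 95% critical value of 0.71, where chance gives about 1 in 20. Clone1 replicate 1 was the library in 5 of the 13: it was high for Atf4 (740 CPM, nearest library 641), Ddit3 (382, nearest 339), Shmt1 (86.1, nearest 71.1) and Cth (70.2, nearest 59.6), and low for Aldh1l2 (212, nearest 278). Fh1_fl_fl replicate 2 was high for Chac1 (67.5 CPM, nearest 56.1), Shmt1 (47.7, nearest 38.2) and Mthfd2 (133, nearest 113). Clone19 replicate 2 was low for Chac1 (104 CPM, nearest 121) and Sesn2 (16.4, nearest 24.6). Rec replicate 2 was low for Eif2ak2 (45.5 CPM, nearest 51.7) and high for Shmt2 (536, nearest 494), and Rec replicate 5 was high for Gpt2 (306, nearest 264).

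The clones differed by over 2-fold in 2 members, by edgeR's test against a 2-fold change on the difference itself. Clone19 was lower than clone1 by -1.67 on the log2 scale for Fgf21 and by -1.61 for Aldh1l2. In edgeR's test against no difference the adjusted p was 9.77e-06 for Fgf21 and 1.89e-14 for Aldh1l2. These 2 values do not measure the evidence for a change over 2-fold.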

How the results depend on the processing

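No member reversed direction among its calls under the 28 alternatives, and the number of changed members stayed within 1.5 times in every comparison. When 1 library was left out, it ran from 30 to 33 in clone1 (33 with all libraries), was 32 in clone19 under each, and ran from 30 to 32 in Rec (31). It ran from 27 to 31 for Rec against clone1 (28), 26 to 30 for Rec against clone19 (28) and 25 to 26 between the clones (25). Of 204 single-gene results per alternative, between 195 and 201 kept their side of the threshold, and of 4080 with a library left out, 3992 did. In Rec against clone19, the call of Eif2ak1 (log2 -0.14, adjusted p = 0.0395) was lost without Rec replicate 2, 3 or 4, clone1 replicate 1 or 5, or clone19 replicate 1, 2, 3 or 5 (adjusted p from 0.0513 to 0.169). That of Eif4ebp1 (log2 -0.18, adjusted p = 0.038) was lost without Rec replicate 1, 4 or 5, clone1 replicate 5, or clone19 replicate 1, 3, 4 or 5 (0.051 to 0.122), and that of Jdp2 without clone19 replicate 2 or 4 (0.0824 and 0.0524). Cth in Rec against clone1 was lost without Rec replicate 5 or clone1 replicate 5 (0.119 and 0.066). Depth limits Fgf21 and Cbs, which stood at or near the 3-count floor in some libraries.

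Same-numbered libraries of different groups did not pair: the 30 correlations of their deviations ran from -0.197 to 0.163, and 6 of 30 were above 0.1. With a replicate block, 32 members changed in clone1, 32 in clone19, 32 in Rec, 29 in Rec against clone1, 28 in Rec against clone19 and 25 between the clones. The block ended the call of Phgdh in clone1 (log2 0.17, adjusted p = 0.0559) and added Eif2ak1 in Rec (log2 -0.13, adjusted p = 0.0475) and Aldh18a1 in Rec against clone1 (log2 -0.14, adjusted p = 0.0429).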
